A study of Homo sapiens with 7 samples.

Results

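Translation initiation factors are the proteins that bring a ribosome to the start codon of an mRNA, and their genes were described here in human T47D/A1-2 cells. Genes were taken from the table of RNA-seq levels by symbol: all whose symbol begins with EIF and a digit from 1 to 6 were kept, and the EIF2AK kinases were left out. This gave 55 of the 26175 genes in the table. Of these, 51 are annotated as protein-coding, and the other 4 are the long non-coding RNAs EIF1AX-AS1, EIF1B-AS1 and EIF3J-AS1 and the pseudogene EIF3IP1.

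In eukaryotes, eIF2 carries the initiator tRNA to the small ribosomal subunit as a complex with GTP, and eIF2B recharges eIF2 with GTP after each round. The eIF4 factors bind the mRNA cap and unwind the leader, and eIF3 holds the mRNA-bound complex on the small subunit while eIF1 and eIF1A monitor the choice of start codon. Many mRNAs of the translation machinery are known to begin with a C followed by an unbroken tract of pyrimidines, the terminal oligopyrimidine (TOP) sequence, through which mTOR signaling controls their translation.

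T47D/A1-2 is a derivative of the T-47D breast cancer line that overexpresses rat glucocorticoid receptor and carries an integrated MMTV luciferase reporter; the sample labels give only T-47D. The series holds 7 samples of these cells under a single growth condition, with 2 Start-seq, 3 RNA-seq, 1 MNase-seq and 1 FAIRE-seq library, and it has no treated or control group. All cells were grown in DMEM with 10% serum and moved to 5% charcoal dextran-treated serum before harvest, for 24 hours or longer. Start-seq sequences short capped nuclear RNA, so that the 5' end of a read marks the nucleotide at which RNA polymerase II began. All 10 luminal epithelial markers in the list used here were measured between 44.1 FPKM for ESR1 and 1142 FPKM for KRT8. The 6 basal, mesenchymal and leukocyte markers lay between 0 and 0.864 FPKM, with VIM the highest. RNA-seq values are FPKM, a count of fragments scaled to transcript length and to library size, and there is 1 value per gene because the authors merged the 3 replicates. Start-seq calls are single positions from replicate 1 with no read counts. No value therefore has an error between replicates, the depth behind a call is unknown, and no test was run. Intervals given for shares are exact Clopper-Pearson 95% intervals that cover the counting of calls only.

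A gene transcription start site (gene TSS) was called for 43 of the 55 genes, 1 for each. The sequences below show the start regions on which the description turns, from 30 nts upstream of the called nucleotide to its 14 following nts, on the coding strand of hg19. The called nucleotide, the first to be transcribed, is counted as +1 and the base before it as -1. The first group has pyrimidine runs that cover +1, and the capitals mark the part of each run from +1 onward, since the bases just upstream are also pyrimidines. These are EIF3A (chr10:120840314-120840358, minus strand), EIF3F (chr11:8008854-8008898, plus strand), EIF3L (chr22:38245396-38245440, plus strand) and EIF3M (chr11:32605348-32605392, plus strand), all subunits of eIF3, and EIF4A2 (chr3:186501336-186501380, plus strand), an RNA helicase that also has a TATA sequence in capitals.
EIF3A: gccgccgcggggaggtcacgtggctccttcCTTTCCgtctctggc
EIF3F: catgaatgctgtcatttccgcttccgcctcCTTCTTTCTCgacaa
EIF3L: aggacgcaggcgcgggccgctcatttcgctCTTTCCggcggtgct
EIF3M: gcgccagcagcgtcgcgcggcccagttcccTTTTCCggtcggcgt
EIF4A2: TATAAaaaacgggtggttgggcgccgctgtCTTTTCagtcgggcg

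The second group has a TATA sequence and no long run at +1, with TATA, the A or T after it and the +1 base in capitals. It holds EIF4A1 (chr17:7476114-7476158, plus strand), the paralog of EIF4A2, EIF1 (chr17:39845109-39845153, plus strand), a factor of start codon selection, and EIF4H (chr7:73588653-73588697, plus strand), a cofactor of the eIF4A helicases.
EIF4A1: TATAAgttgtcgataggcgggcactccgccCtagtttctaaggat
EIF1: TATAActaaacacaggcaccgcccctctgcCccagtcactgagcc
EIF4H: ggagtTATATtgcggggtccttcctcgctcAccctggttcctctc

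The third group shows starts of other kinds. In EIF4B (chr12:53400238-53400282, plus strand), another eIF4A cofactor, and EIF2S3 (chrX:24073066-24073110, plus strand), the gamma subunit of eIF2, the longest pyrimidine run and the +1 base are in capitals, and the run ends before the called nucleotide. In the scaffold genes EIF4G1 (chr3:184032364-184032408, plus strand) and EIF4G2 (chr11:10830456-10830500, minus strand), the capitals mark the bases at -1 and +1, a pyrimidine followed by a purine.
EIF4B: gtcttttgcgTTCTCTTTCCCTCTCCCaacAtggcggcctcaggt
EIF2S3: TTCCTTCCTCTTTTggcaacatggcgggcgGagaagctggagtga
EIF4G1: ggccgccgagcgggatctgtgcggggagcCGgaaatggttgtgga
EIF4G2: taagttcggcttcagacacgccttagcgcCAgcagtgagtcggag

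Initiation factor mRNAs were mostly abundant. Of the 55 genes, 48 (87.3%) had an FPKM of 1 or more, beside 46.9% of all genes, and of the 51 coding genes, 47 (92.2%), beside 60.1% of coding genes. The median was 60.7 FPKM over the 51 coding genes and 4.05 FPKM over all 18960 coding genes. Among coding genes with an FPKM of 1 or more, the medians were 77.1 FPKM (n = 47) and 15.8 FPKM (n = 11391). Levels within the family ranged from 0 to 350 FPKM.

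**Figure D1:**
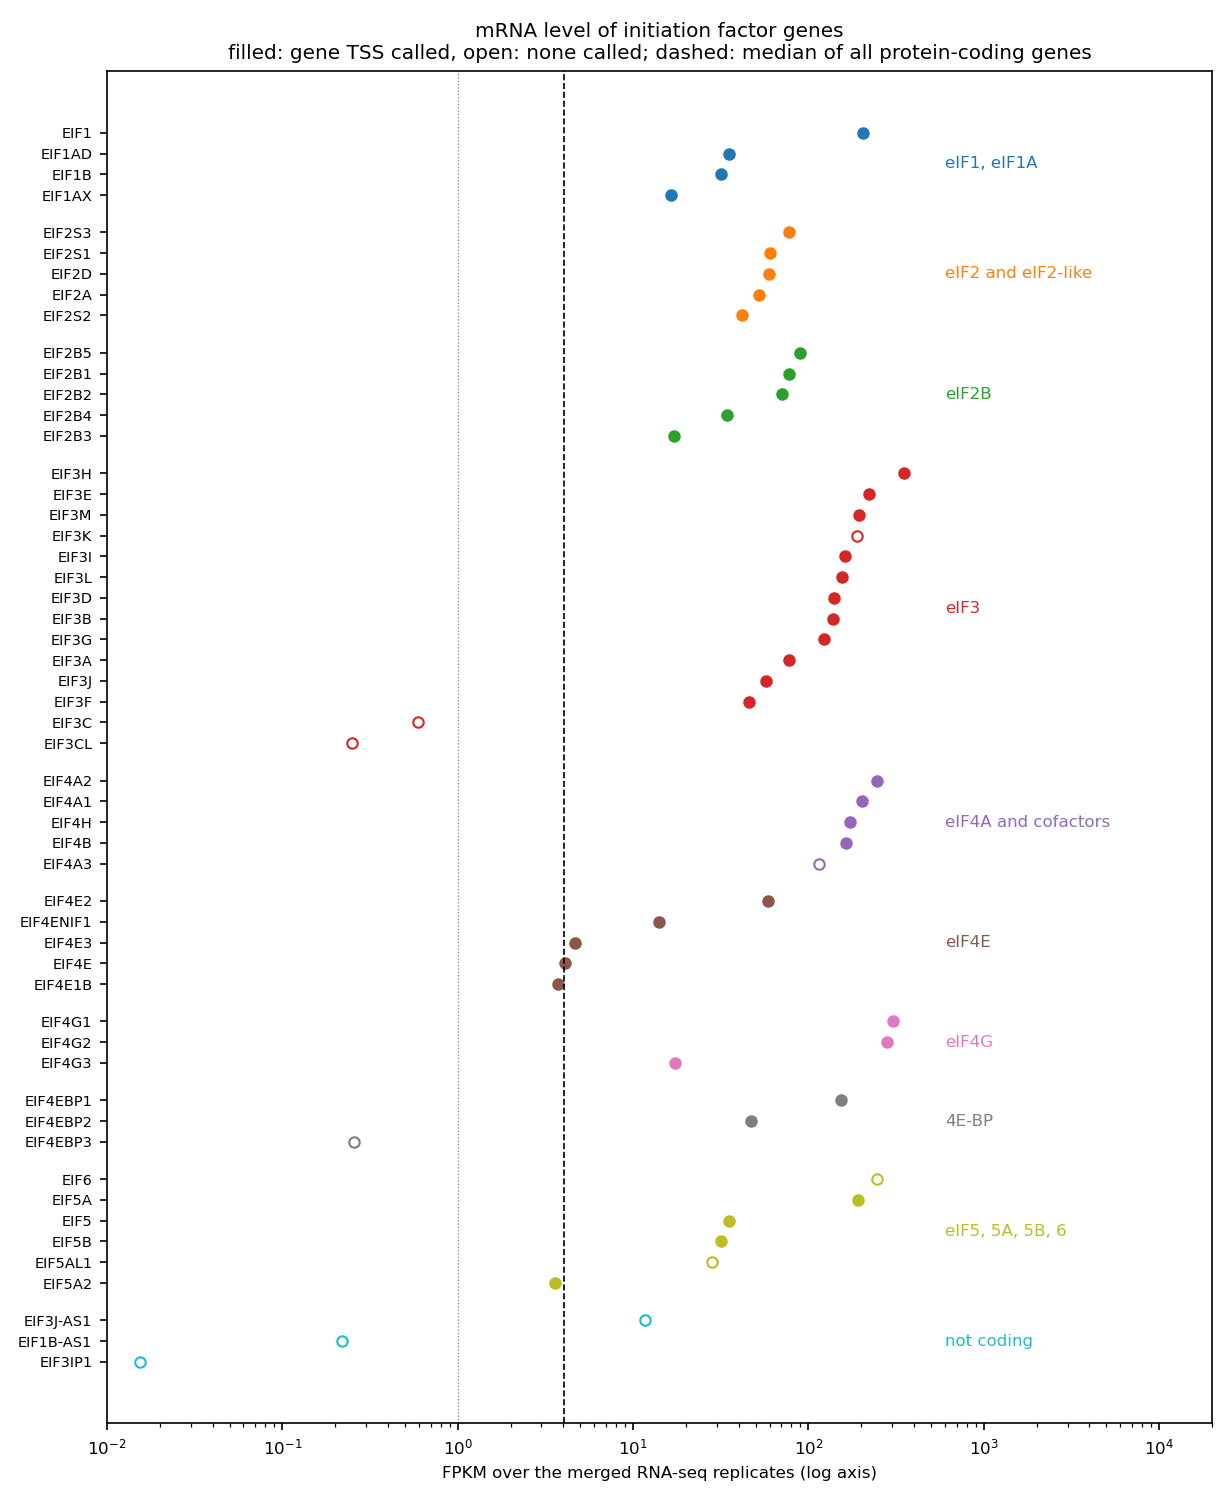
RNA-seq level of each initiation factor gene in FPKM on a log axis, grouped and colored by factor, with filled points for genes with a called gene TSS and open points for those without. The dotted line is an FPKM of 1 and the dashed line the median of all coding genes, 4.05 FPKM; 12 eIF3 genes lie between 46.0 and 350 FPKM while EIF3C and EIF3CL lie below 1, and the 2 genes listed at 0 are not drawn.

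The eIF3 complex, the largest initiation factor, was among the most abundant groups. Its 14 genes had a median of 139 FPKM. EIF3H stood highest at 350 FPKM, the highest level of the whole family. EIF3E followed at 221 FPKM, EIF3M at 193 FPKM and EIF3K at 189 FPKM. All 4 belong to the PCI and MPN core of the complex. EIF3I was at 163 FPKM, EIF3L at 155 FPKM, and EIF3D, a subunit that can itself bind a cap, at 140 FPKM. EIF3B, a scaffold subunit, was at 138 FPKM and EIF3G at 122 FPKM. Lower levels were found for EIF3A, the largest scaffold subunit, at 77.7 FPKM, EIF3J, a loosely attached subunit, at 57.3 FPKM and EIF3F at 46.0 FPKM. Although they assemble into a common complex, these 12 subunits spanned 46.0 to 350 FPKM around a median of 148.

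EIF3C and EIF3CL, a duplicated pair of genes for another scaffold subunit, were listed at 0.595 and 0.248 FPKM. Of all 50-nt stretches of the EIF3C transcript, 98.8% also occur in EIF3CL, and 98.7% of those of EIF3CL occur in EIF3C. Their start regions were equal at 201 of 201 positions compared. Neither had a gene TSS, and Start-seq positions were taken by the authors from uniquely mapped fragments. How reads of the pair were shared out was not tested, so the levels of both genes are uncertain.

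The eIF2 group was more even. EIF2S1, the alpha subunit that is phosphorylated under stress, was at 60.7 FPKM, EIF2S2, the beta subunit, at 42.0 FPKM and EIF2S3 at 77.1 FPKM. EIF2A and EIF2D, factors outside the trimer that can deliver an initiator tRNA in other settings, were at 52.1 and 59.3 FPKM. The 5 values thus lay between 42.0 and 77.1 FPKM. For EIF2S2 and EIF2S3, 23.5% and 20.1% of 50-nt stretches occur in other genes, mainly in EIF2S2P4 and EIF2S3B.

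The 5 subunits of eIF2B, the exchange factor of eIF2, had a wider range. EIF2B5, the catalytic epsilon subunit, was highest at 90.0 FPKM. Of the regulatory subunits, EIF2B1 and EIF2B2 were at 77.2 and 71.1 FPKM, and EIF2B4 was lower at 34.2 FPKM. EIF2B3, which pairs with EIF2B5 in the catalytic part, was the lowest of the group at 17.1 FPKM.

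Most genes of the cap-binding group were low beside the scaffolds EIF4G1 and EIF4G2. EIF4E, which binds the cap and is the target of the 4E-binding proteins, was at 4.08 FPKM, near the median of all coding genes. Its paralogs EIF4E1B and EIF4E3 were at 3.72 and 4.68 FPKM, and EIF4E2, a weaker cap binder known from translational repression, was higher at 59.0 FPKM. EIF4ENIF1, the transporter of EIF4E, was at 14.1 FPKM. A share of 20.9% of the 50-nt stretches of EIF4E occurs in EIF4EP2. In contrast, EIF4G1, the scaffold that joins EIF4E to eIF4A, was at 305 FPKM and EIF4G2, which lacks the EIF4E-binding part, at 282 FPKM. Their paralog EIF4G3 was at 17.2 FPKM.

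The helicases EIF4A1 and EIF4A2 were at 201 and 247 FPKM, and EIF4A3, a helicase of the exon junction complex, was at 114 FPKM. The cofactors EIF4B and EIF4H were at 164 and 171 FPKM, so that all 5 genes of this group lay between 114 and 247 FPKM. Words shared with other genes made up 29.0% of EIF4A1, 33.0% of EIF4B and 14.5% of EIF4H, with EIF4A1P10, EIF4BP6 and EIF4HP1 as the main other genes. Of the 4E-binding proteins, which hold EIF4E away from eIF4G, EIF4EBP1 was at 153 FPKM, EIF4EBP2 at 47.0 FPKM and EIF4EBP3 at 0.256 FPKM.

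In the group of start selection, EIF1 was at 206 FPKM and its paralog EIF1B at 31.7 FPKM. EIF1AX was at 16.5 FPKM and EIF1AD, which carries an eIF1A-like domain, at 35.0 FPKM, while the Y-linked copy EIF1AY was listed at 0. Of the late-acting factors, EIF5, the GTPase activator of eIF2, was at 35.2 FPKM and EIF5B, which joins the ribosomal subunits, at 31.9 FPKM. EIF6, which keeps the large subunit apart, was at 246 FPKM. EIF5A, an elongation and termination factor despite its name, was at 191 FPKM, beside 3.56 FPKM for its paralog EIF5A2 and 28.3 FPKM for EIF5AL1. Of the 50-nt stretches of EIF5A, 36.8% occur in EIF5AL1, so these 2 levels may share reads. The non-coding EIF3J-AS1 was at 11.7 FPKM, EIF1B-AS1 at 0.219 FPKM, EIF3IP1 at 0.0155 FPKM and EIF1AX-AS1 was listed at 0.

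Gene TSSs were called for 43 of the 55 genes (78.2%), beside 41.5% of all genes with an annotated start. The 43 are all protein-coding. Among coding genes with an FPKM of 1 or more, 43 of 47 had a gene TSS (91.5%, interval 79.6% to 97.6%), beside 80.5% of all such genes, a share inside that interval. The 4 expressed coding genes with none were EIF6, EIF3K, EIF4A3 and EIF5AL1. Although EIF6 and EIF3K are among the most abundant members, the nearest gene TSS on either strand lay 112926 nts from the annotated 5' end of EIF6 and 28605 nts from that of EIF3K. The distances were 45600 nts for EIF4A3 and 66797 nts for EIF5AL1. EIF3C, EIF3CL, EIF4EBP3, EIF1AY and the 4 non-coding genes also had none. The authors searched only near the starts of RefSeq mRNAs, so that a non-coding gene could not receive a call of its own.

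The calls fell close to annotated starts. Of the 43, 20 lay exactly on an annotated transcript start (46.5%, beside 21.9% of all gene TSSs) and 34 within 10 nts (79.1%, beside 50.5%), and the median distance was 1 nt, beside 10 nts over all gene TSSs. Those more than 100 nts away were EIF2B5, called 779 nts upstream, EIF3J, 684 nts upstream and within EIF3J-AS1 on the opposite strand, EIF4E3, 195 nts upstream, EIF2S2, 286 nts downstream, and EIF4EBP1, 644 nts downstream. Whether these 5 sites are starts of the mRNA was not tested.

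The leader, the spliced stretch from the called start to the start codon, could be read for 38 members, and its median was 99.5 nts, beside 145 nts over 8369 gene TSSs. The interval of the members' median was 34 to 152 nts, which holds 145 nts. A leader of 30 nts or less was found at 10 of the 38 (26.3%, interval 13.4% to 43.1%), beside 12.4% of all. Among these, EIF3E, EIF3F, EIF3G and EIF4A1 had leaders of 15 or 16 nts, and EIF3H had 26 nts. EIF2A had 10 nts. EIF4B was called on the first base of its annotated start codon, seen in its printed sequence as the atg whose A is the +1 base; over all gene TSSs with a leader, 0.824% lay there. In EIF2S3 the call lay 10 nts past the first base of the start codon in the same exon. Over all gene TSSs, 4.21% lay past the start codon in the same exon, at any distance. In both of these genes a long pyrimidine run stands just upstream: 17 nts in EIF4B, ending 3 nts before +1, and 14 nts in EIF2S3, ending 16 nts before it. The EIF2S3 run begins at the first base shown, so its full length may be greater.

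A TOP-like start was read as a C at +1 with C or T at each position from 2 to 5, on the coding strand at exactly the called nucleotide. It was found at 6 of the 43 gene TSSs (14.0%, interval 5.30% to 27.9%), beside 3.39% of all 10391. These were EIF3A, EIF3E, EIF3F, EIF3H, EIF3L and EIF4A2. Of the 11 gene TSSs in the eIF3 complex, 5 were TOP-like, and of the 32 elsewhere in the family, 1 was. The runs from +1 were 6 nts long in EIF3A, EIF3L and EIF4A2, 9 nts in EIF3E, 10 nts in EIF3F and 12 nts in EIF3H. EIF3M, printed above, also had a run of 6 nts from +1, but its first base is T, so that 7 starts had a run of 5 nts or more whatever the first base, beside 4.43% of all. With a C and 3 pyrimidines required, the count was also 6, beside 4.72% of all. With a C and 6 pyrimidines required, 3 starts remained (EIF3E, EIF3F and EIF3H), beside 1.61% of all. The exact interval of 3 of 43 is 1.46% to 19.1%, which holds 1.61%. The reading of C and 4 pyrimidines moved 50 nts downstream gave 2, beside 3.02%. When the tract was allowed to begin up to 2 nts to either side, 8 starts had it, with EIF3M and EIF4EBP2 gained, beside 9.38% of all. Against the main reading, the share over all rose by a larger factor than the members' count.

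**Figure D2:**
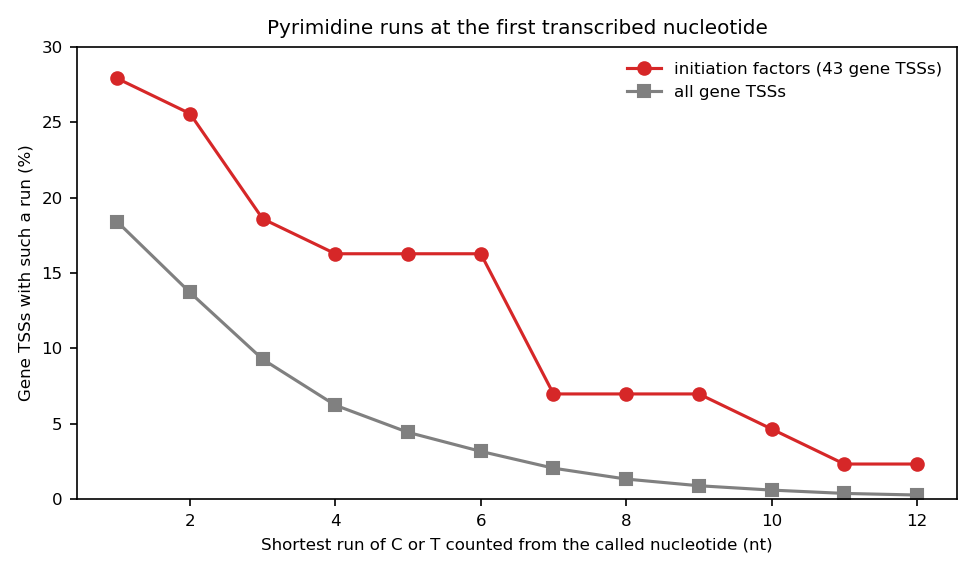
Percent of gene TSSs with a run of C or T at least as long as the value on the horizontal axis, counted in nts from the called nucleotide, for the 43 initiation factor gene TSSs (circles) and all gene TSSs (squares). Runs of 6 nts or more were found at 16.3% of the initiation factor starts and 3.17% of all, and runs of 7 nts or more at 6.98% and 2.05%.

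The TOP-like genes differed widely in level, but none was among the lowest members. Their median was 188 FPKM (n = 6), from 46.0 FPKM for EIF3F to 350 FPKM for EIF3H, and that of the other 37 genes with a gene TSS was 59.3 FPKM, with a range of 3.56 to 305 FPKM. The groups overlap. Among the paralogs, EIF4A2 had a TOP-like start and EIF4A1 did not: after its first 2 pyrimidines the EIF4A1 sequence reads a purine. Long runs were also counted anywhere in the 45 nts shown. A run of 10 nts or more was present at 11 of 43 (25.6%), beside 7.39% of all gene TSSs. These were EIF3A, EIF3D, EIF3E, EIF3F, EIF3H, EIF3M, EIF4B, EIF2S3, EIF2A, EIF4E and EIF4EBP1, and their lengths ran from 11 nts to 17 nts. In the TOP-like genes among them and in EIF3M, the run reached across +1 from upstream: it was 13 nts in EIF3A and EIF3E, 14 nts in EIF3F, 15 nts in EIF3H and 11 nts in EIF3M, longer than its part from +1.

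Other features of the start were closer to the background. C was the called base at 25.6% of the members and 13.8% of all gene TSSs, while A was called at 41.9% and 44.1% and G at 30.2% and 37.5%. Of the 11 members called at C, 6 are those with a TOP-like start, which requires a C. The pair of a pyrimidine (-1) and a purine (+1), as at EIF4G1 and EIF4G2, was present at 28 of 43 (65.1%), beside 66.1% of all. A TATA sequence, searched on the coding strand as TATAA or TATAT with its first base from -35 to -24, was present at 4 genes (EIF1, EIF4A1, EIF4A2 and EIF4H), or 9.30% with an interval of 2.59% to 22.1%, beside 3.0% of all. Their levels ran from 171 FPKM for EIF4H to 247 FPKM for EIF4A2. The GC box, GGGCGG on either strand in the 50 nts upstream, was present at 13 of 43 (30.2%), beside 27.4% of all. EIF1, EIF4A1 and EIF4H had both a TATA sequence and a GC box.

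Antisense starts were called around most initiation factor genes. An upstream antisense TSS (uaTSS) is an antisense start called within 1000 nts upstream of a gene TSS, and a downstream antisense TSS (daTSS) one within 2000 nts downstream. The authors set a minimum read count for a call. They also removed daTSSs that might be a gene TSS or the uaTSS of another start. A missing call therefore does not show that antisense initiation is absent. A uaTSS was called for 29 of the 43 genes (67.4%, interval 51.5% to 80.9%), beside 53.1% of all gene TSSs. A daTSS was called for 18 (41.9%, interval 27.0% to 57.9%), beside 28.4%. Both were called for 15 (34.9%, interval 21.0% to 50.9%), beside 17.5%, and neither for 11 (25.6%, interval 13.5% to 41.2%), beside 35.9%. The percent over all gene TSSs lay inside the interval for the uaTSS and for neither call, at 28.4% in 27.0% to 57.9% for the daTSS, and below the interval for both calls together. The members' levels lay above those of all genes, as given before, and their part in these shares was not tested.

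**Figure D3:**
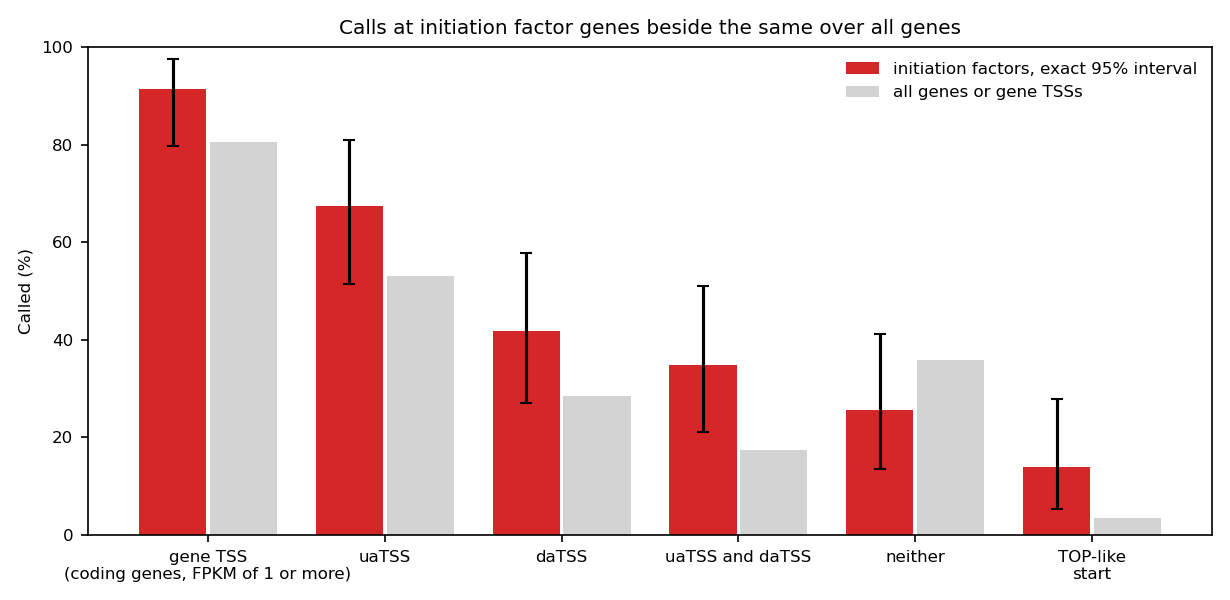
Percent of initiation factor genes (red, with exact 95% intervals that cover the counting of calls only) and of all genes or gene TSSs (gray) with each kind of call. The gene TSS bars are over coding genes with an FPKM of 1 or more, 91.5% and 80.5%, and the other bars are over gene TSSs, such as 41.9% and 28.4% with a daTSS.

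The factor groups differed in their calls, in counts too small to compare. All 4 genes with a gene TSS in the group of EIF5, EIF5A, EIF5A2 and EIF5B had both a uaTSS and a daTSS. All 3 scaffold genes had a uaTSS, and EIF4G1 and EIF4G3 also had a daTSS, at 801 and 572 nts. All 4 genes of the eIF4A group had a uaTSS, and EIF4A1 and EIF4H also a daTSS, at 411 and 733 nts. EIF4A1 was symmetric, with its uaTSS likewise 411 nts from the gene TSS. In the eIF3 complex, 7 of 11 had a uaTSS and 3 a daTSS (EIF3D at 180 nts, EIF3F at 756 nts and EIF3H at 1128 nts). In the eIF2 group, 1 of 5 had a uaTSS: EIF2S2, at 468 nts, which also had the nearest daTSS of the family, at 144 nts. Both distances are from a gene TSS called 286 nts downstream of the annotated start.

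Distances varied widely among members. The median distance of the uaTSS was 225 nts (n = 29), from 62 nts at EIF4E2 to 769 nts at EIF3B, beside a median of 200 nts over all 5519 uaTSSs. The median distance of the daTSS was 691.5 nts (n = 18), from 144 nts at EIF2S2 to 1206 nts at EIF5A, beside 507 nts over all 2956 daTSSs. Intervals of the members' medians were 174 to 311 nts for the uaTSS and 411 to 801 nts for the daTSS. Each holds the median over all calls of its kind. Next after EIF2S2 and EIF3D came EIF2B3, whose daTSS lay at 199 nts, and EIF5A2, at 230 nts. Farther daTSSs were those of EIF1 at 413 nts, EIF2B5 at 434 nts, EIF5B at 660 nts, EIF4ENIF1 at 723 nts, EIF4E at 761 nts, EIF5 at 840 nts and EIF2S3 at 900 nts. The daTSS lay in an intron of its gene at 16 of the 18 (88.9%, interval 65.3% to 98.6%), beside 71.1% of all daTSSs, a share inside that interval. It lay in intron 2 for EIF2S3 and EIF5 and in intron 1 for the rest. The daTSS of EIF4G3 lay in exon 2. That of EIF2B5 lay upstream of the annotated gene, whose gene TSS was called 779 nts before the annotated start.

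**Figure D4:**
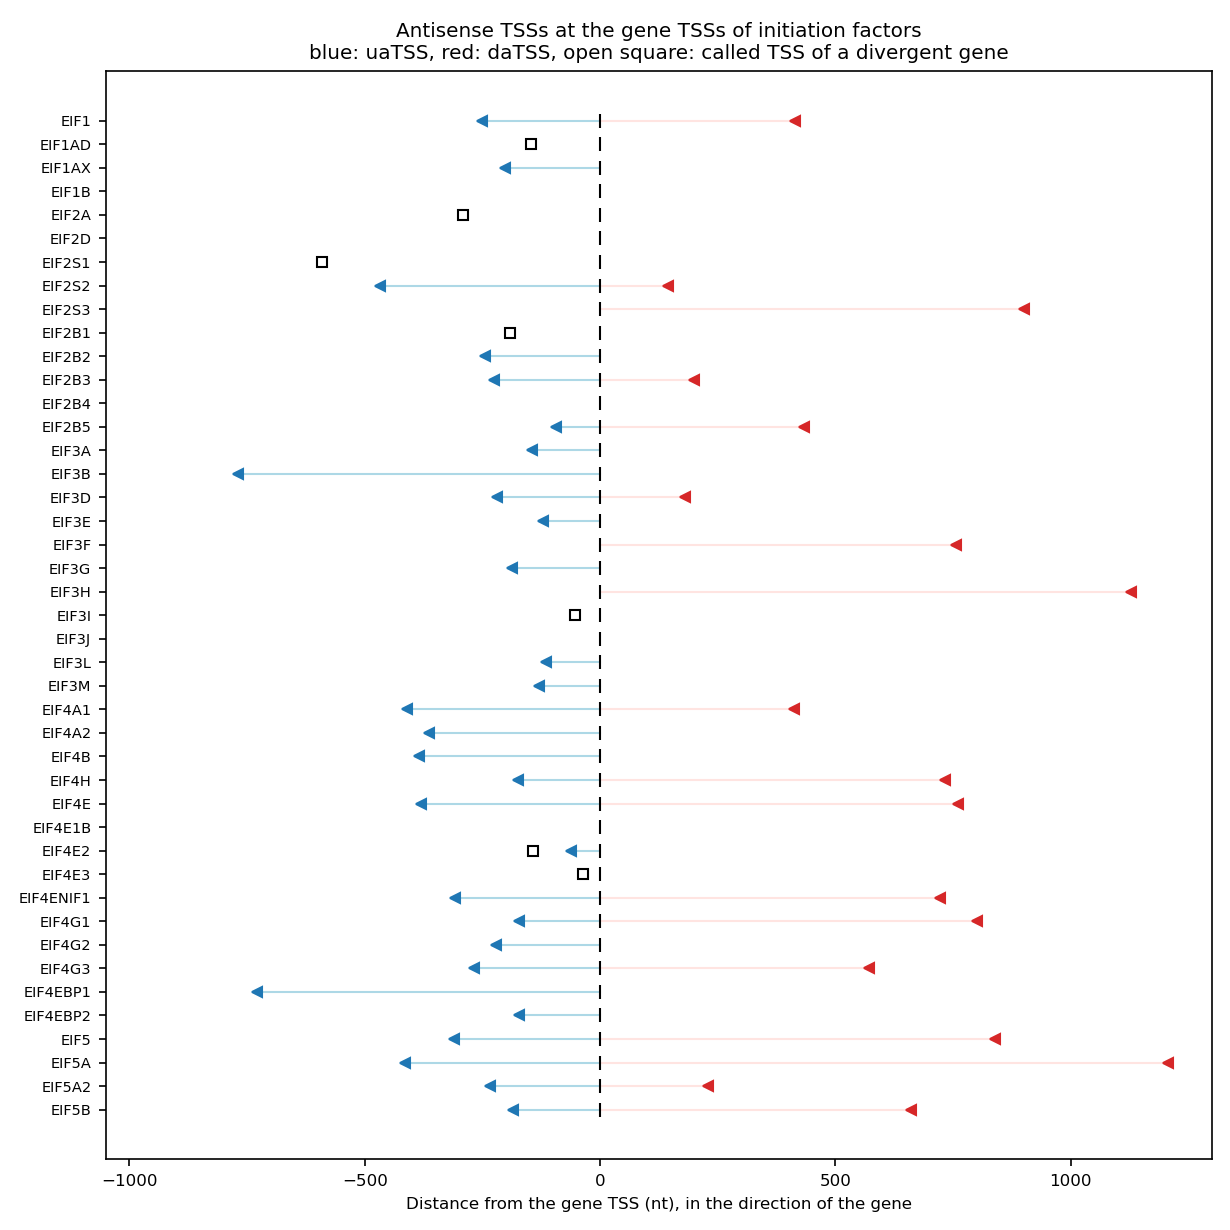
Position in nts of the uaTSS (blue) and daTSS (red) of each initiation factor gene from its gene TSS at 0, with open squares for a called gene TSS of a divergent neighbor within 1000 nts upstream. The uaTSSs lie between 62 and 769 nts upstream and the daTSSs between 144 and 1206 nts downstream. Of the 7 genes with a divergent neighbor, 6 have neither a uaTSS nor a daTSS, beside 947 of all 1198 such gene TSSs.

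Some genes with neither call had a divergent neighbor, as gene TSSs of that class did over the whole series. An opposite-strand gene TSS called no more than 1000 nts upstream was found at 7 of 43 genes (16.3%), beside 11.5% of all gene TSSs. It was present at 6 of the 11 genes with neither call (54.5%, interval 23.4% to 83.3%), beside 25.4% of all gene TSSs with neither call, a share inside that interval. These pairs were EIF2A with SERP1 at 291 nts, EIF2S1 with ATP6V1D at 591 nts, EIF2B1 with GTF2H3 at 192 nts, EIF3I with TMEM234 at 54 nts, EIF1AD with BANF1 at 147 nts and EIF4E3 with GPR27 at 36 nts. The partners ranged from GPR27 at 2.13 FPKM to BANF1 at 226 FPKM. At the seventh gene, EIF4E2, a uaTSS was called at 62 nts and the gene TSS of TIGD1 lay at 142 nts. The remaining genes with neither call were EIF1B, EIF2B4, EIF2D, EIF3J and EIF4E1B. EIF1B-AS1, a non-coding gene that could not receive a call, starts 145 nts upstream of the EIF1B gene TSS on the opposite strand. With the 7 divergent genes left out, 28 of 36 had a uaTSS, beside 57.9% of such gene TSSs.

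Levels overlapped between the antisense classes. The median was 145 FPKM for the 14 genes with only a uaTSS, 42.0 FPKM for the 15 with both calls, 52.1 FPKM for the 11 with neither, and 77.1 FPKM for the 3 with only a daTSS (EIF2S3, EIF3F and EIF3H). Genes with both calls ran from EIF5A2 at 3.56 FPKM to EIF4G1 at 305 FPKM, and genes with only a uaTSS from EIF1AX at 16.5 FPKM to EIF4G2 at 282 FPKM. These ranges cover most of each other. No difference between them was tested.

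Other genes of translation were read in the same way. The 6 genes of the eIF2alpha kinases and the phosphatase subunits PPP1R15A and PPP1R15B had a median of 20.4 FPKM, and none of their 6 gene TSSs was TOP-like. Among 13 other initiation proteins, with a median of 42.9 FPKM, the poly(A)-binding protein gene PABPC1 at 345 FPKM was TOP-like with a run of 12 nts from +1, the 1 such start of 12 gene TSSs. Among 8 genes with symbols that begin with EEF, with a median of 127 FPKM, 2 of 7 gene TSSs were TOP-like. They were those of EEF2 at 672 FPKM (run of 7 nts) and EEF1A2 at 170 FPKM (run of 6 nts). The list also holds the kinase EEF2K at 7.39 FPKM and EEF1E1 at 49.1 FPKM, which do not carry out elongation themselves. EEF1A1 and EEF1D had runs of 8 nts that begin with T, as the run of EIF3M does. Of the gene TSSs in this list, 2 of 7 had a uaTSS (EEF1G and EEF2K) and 3 had a daTSS. The 3 termination factor genes had a median of 53.7 FPKM and no TOP-like start.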

How the data were processed

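Gene levels came from the RNA-seq table, deposited by the authors as a single FPKM value per gene. Per the submitters' processing notes and the methods, reads were trimmed with cutadapt, aligned with TopHat2 2.0.4, stripped of duplicates with Picard and merged over the 3 replicates before Cufflinks 2.2.1. Start-seq reads of replicate 1 were trimmed with cutadapt 1.2.1, aligned to hg19 with Bowtie 0.12.8 and called at single nucleotides by the authors. The deposited call lists give positions with a score of 0 throughout, so depth is unknown. The FAIRE-seq and MNase-seq files and the second Start-seq library were left out.

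A gene TSS was assigned to the gene whose annotated transcript start lay nearest on its strand, within 1000 nts. The uaTSS and daTSS lists were joined to it by their shared identifier. Gene models were GENCODE v44 lifted to GRCh37, whose chromosomes have the hg19 sequence, and 23668 of 26173 distinct symbols were placed, 1331 of them by an older symbol listed in RefSeq. The authors used an earlier RefSeq annotation. Words of 50 nts from each member's transcript were searched in the exons of all other genes. The assignment and the tract reading were tested on planted data (400 of 400 calls and 1000 of 1000 tracts were right). Python 3.11.15 was used with pandas 2.3.3, numpy 2.4.6, scipy 1.17.1, pysam 0.24.0 and matplotlib 3.10.9.

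The members, gene lists and readings were chosen with earlier results of these data known. Values were printed for all eIF2, eIF2B and eIF3 genes, the extremes and paralogs of the other groups, members without a call, those with a daTSS or a TOP-like start, and those with near-identical copies. The TATA, GC box, leader, pyrimidine-purine and long-run readings are further descriptions added afterwards. Alternatives changed the genes counted, the pseudocount of the log2 level, the distance to an annotated start, the daTSS window and the tract.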

Additional observations from a re-analysis of the deposited data

How the results depend on the processing

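Of 18 alternatives, 16 left their result within 1.5 times its value or within its spread. This rule does not weigh the background. Some of the 16 could not change their result. No member had several gene TSSs, so counting 1 per member repeated the uaTSS and daTSS counts. All 43 members with a gene TSS had 3.56 FPKM or more, so a limit of 1 FPKM repeated that count. With the tract allowed to shift up to 2 nts, the members' count rose from 6 to 8 of 43. The share of all gene TSSs rose from 3.39% to 9.38%. The count of TOP-like starts moved from 6 to 3 of 43 with a C and 6 pyrimidines, a stricter reading that can only lower it. The reading 50 nts downstream, which looks at other bases, gave 2 of 43, beside 3.02% of all gene TSSs. Restricting gene TSSs to those within 500 nts of an annotated start, an alternative added after seeing the data, left 6 of 40. The median level was 74.1 FPKM over the 48 genes with an FPKM of 1 or more, beside 14.4 FPKM over all such genes. Gene TSSs were called for 40 members within 500 nts of an annotated start and for 43 anywhere along the gene. With daTSSs counted only within 1000 nts, 16 genes had a daTSS, beside 24.1% of all gene TSSs. No paired analysis was possible because the RNA-seq values are a single merged column and the calls come from a single library, which also leaves no replicate to leave out. Depth could not be weighed, since neither file gives read counts.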
